A study of Homo sapiens with 6 samples.

Results

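The genes described here encode the transcription factors NFE2L1 and NFE2L2, their small MAF partners MAFF, MAFG and MAFK, the repressor BACH1, the NFE2L2 inhibitor KEAP1 and the enzyme NGLY1, 8 genes in all, chosen by name. The array's annotation table assigned 20 of its 54675 probe sets to 7 of them, and it named none for MAFK, for which no value is given. Of the 20 probe sets, 16 named 1 gene alone, and 12 of those reached a log2 level of 4 on at least 2 of the 6 arrays and were tested. All 7 annotated genes were among the 10370 genes that passed this filter on low values, out of 19775 with a probe set of their own, and all 6 arrays were above the level for the probe set that represents each of them. All 6 arrays came from HT-29, an established line from a human colon adenocarcinoma, in 3 variants. BR100 and BR200 are named as resistant to bortezomib, a proteasome inhibitor, and the third variant is labelled wild type. The label text, which stands on wild type too, says that HT-29 was exposed to bortezomib at 20 nM rising to 300 nM for 7 months, and that clones then came from 2 limiting dilutions at 100 nM or 300 nM over another 4 months. It states neither which dose gave BR200 nor whether drug was on the cells at harvest. BR100, BR200 and wild type had 2 arrays each, 1 made with the Express kit from 100 ng of RNA and 1 with the One-Cycle kit from 3 ug. Whether both arrays of a variant stem from different cultures is not stated, so p-values here measure only array-to-array spread, which may be technical.

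NFE2L1 and NFE2L2 are cap'n'collar basic leucine zipper factors. They bind antioxidant response elements as dimers with a small MAF protein, a partner that carries no activation domain of its own. NFE2L1 enters the endoplasmic reticulum membrane, is pulled back into the cytosol, loses its sugars to the glycanase NGLY1 and is cut, and when proteasomes are blocked the processed form raises transcription of proteasome subunit genes. NFE2L2 drives antioxidant and detoxifying enzymes and is held low by KEAP1, which hands it to a CUL3 ubiquitin ligase. BACH1 also pairs with small MAFs and represses a part of the same genes. Since control of NFE2L1 and NFE2L2 acts largely on the protein, RNA levels from arrays cover only 1 layer of it.

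Promoter windows of 3 members are shown because they held a letter match to a searched element. These factors, or related leucine zipper factors, are known to bind such elements. MAFF and KEAP1 have 2 windows each at annotated starts and BACH1 has 3, and only the window shown held a match. The windows are 250 bases upstream of an annotated start, on the gene's strand, from RefSeq on build GRCh38.p14. Capitals mark the matches. The searched motifs were the antioxidant response element core TGACNNNGC, the TPA response element TGAGTCA and the cyclic AMP response element TGACGTCA, on both strands. The MAFF window lies at chr22:38201744-38201993 (plus strand), the BACH1 window at chr21:29298672-29298921 (plus strand) and the KEAP1 window at chr19:10502772-10503021 (minus strand).
MAFF: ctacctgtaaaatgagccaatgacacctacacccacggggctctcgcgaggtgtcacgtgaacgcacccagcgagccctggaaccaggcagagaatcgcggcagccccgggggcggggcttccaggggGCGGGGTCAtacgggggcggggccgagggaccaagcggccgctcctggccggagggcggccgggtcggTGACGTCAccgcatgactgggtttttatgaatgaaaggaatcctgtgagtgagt
BACH1: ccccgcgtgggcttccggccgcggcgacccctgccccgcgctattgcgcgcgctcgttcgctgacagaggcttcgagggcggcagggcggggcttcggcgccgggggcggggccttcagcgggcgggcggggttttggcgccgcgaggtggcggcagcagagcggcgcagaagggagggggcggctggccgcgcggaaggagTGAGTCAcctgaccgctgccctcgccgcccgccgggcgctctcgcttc
KEAP1: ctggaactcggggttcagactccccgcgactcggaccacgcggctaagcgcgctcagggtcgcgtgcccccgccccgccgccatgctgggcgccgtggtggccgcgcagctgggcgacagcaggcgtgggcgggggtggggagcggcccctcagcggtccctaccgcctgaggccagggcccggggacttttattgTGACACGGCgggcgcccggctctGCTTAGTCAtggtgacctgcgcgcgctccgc

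MAFF held an antioxidant response element core on the opposite strand, 122 to 114 bases before its start, and a cyclic AMP response element at 54 to 47. BACH1 held a TPA response element at 48 to 42 bases. KEAP1 held 2 antioxidant response element cores, at 54 to 46 bases and, on the opposite strand, at 31 to 23. No 2 of these matches overlapped. Among all 35116 promoter windows cut to the same length, 10.9% held the antioxidant response element core, 4.2% the TPA response element and 1.65% the cyclic AMP response element. Of 14 windows at annotated starts of the 7 measured members, 3 held any match. These are matches of letters, and a window without one says only that these letters are not in it.

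The arrays carried RNA of an epithelial line, since 9 of 11 colon epithelium markers reached a log2 level of 4 on both arrays of each variant; CDX1 and CDX2 were under it on both. Of the 9, 5 were lower than wild type in each resistant variant and none was higher. LGALS4, a galectin of gut epithelium, was 63.8-fold lower in BR100 and 47.2-fold lower in BR200, CEACAM5 4.49-fold and 3.77-fold lower, and VIL1 3.60-fold and 3.36-fold lower in the same order; KRT8, KRT18, KRT19 and EPCAM did not pass the threshold. The log2 of the summed level of the 11 markers was 17.00 to 17.01 in BR100, 17.07 on both BR200 arrays and 17.31 to 17.35 in wild type, and its part in the results was not tested. Of the markers of other cells, 1 of 6 for fibroblasts, 2 of 4 measured for blood cells and 1 of 4 for endothelium reached the level in each variant. Of these, CD14, a monocyte receptor, was higher in BR200 than in wild type by 1.05 (adjusted p = 0.0013) and than in BR100 by 0.78 (adjusted p = 0.0253), while PTPRC and CD3E of the same list were under the level. LYZ, the other blood marker at the level, had log2 means of 14.61 in BR100, 14.69 in BR200 and 14.44 in wild type. COL1A1 was at −0.33 in BR100 (adjusted p = 0.0323). It had the same value on both BR200 arrays (5.60), as ENG had on both BR100 arrays (4.65). The 3' minus 5' gap of the ACTB control, which grows with RNA breakdown and with short labelling products, was 1.76 to 3.24 (log2) on the 4 resistant arrays, against 2.99 and 4.22 on the wild type arrays, and it was larger in wild type within each kit. The GAPDH gap was 0.155 to 0.224 in the resistant variants and 0.396 and 0.483 in wild type. Whether these gaps contribute to the differences below was not tested.

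The first question was how the regulators differed in the resistant variants. Of the 7 member genes tested, BR100 had 2 higher and 4 lower than wild type, and BR200 had 2 higher and 5 lower (limma with Benjamini-Hochberg adjustment across the 10370 genes, threshold 0.05). NFE2L1, MAFF and BACH1 fell most, NFE2L2 fell less, and KEAP1 and NGLY1 rose. Most genes on these arrays were called, 68.5% in BR100 against wild type (36.7% higher, 31.8% lower) and 66.5% in BR200 against wild type (35.4% higher, 31.2% lower). The count of called members is therefore not a result about them, and their sizes and directions are given gene by gene. The median change over the 7 genes was −0.67 in BR100 and −0.58 in BR200, beside 0.04 in both comparisons over all genes tested. Both comparisons use the same wild type arrays, so the second is no separate support for the first.

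**Figure D1:**
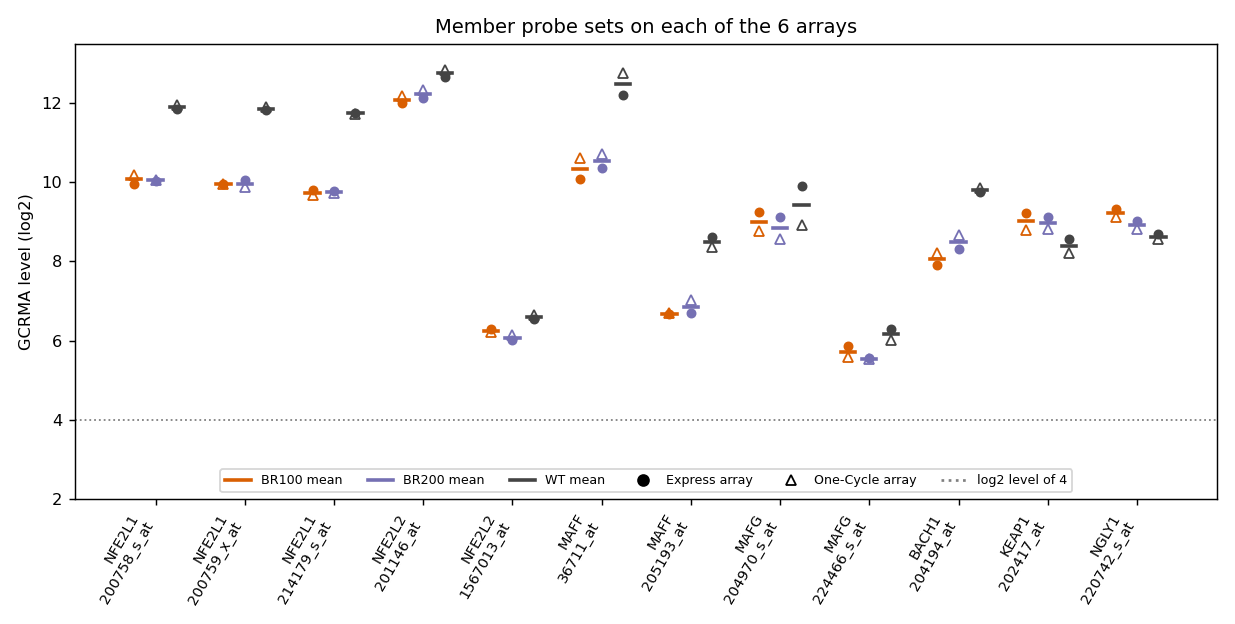
Log2 levels of the 12 tested member probe sets on each array. Columns within a probe set are BR100, BR200 and wild type (WT), filled circles are Express arrays, open triangles One-Cycle arrays, and bars are means of 2 arrays; the 3 NFE2L1 probe sets lie between 9.69 and 10.19 in the resistant variants and between 11.72 and 11.95 in wild type. Levels of different probe sets are not comparable with each other.

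NFE2L1, the factor that raises proteasome genes when proteasomes are blocked, had log2 levels of 9.97 and 10.19 in BR100 and 10.03 and 10.07 in BR200, against 11.85 and 11.95 in wild type (Express first, then One-Cycle, here and below; probe set 200758_s_at). Every resistant array lay below both wild type arrays, and the 2 resistant variants overlapped. The level was 3.53-fold lower in BR100 (log2 change −1.82, SE 0.0771, adjusted p = 0.00019) and 3.61-fold lower in BR200 (log2 change −1.85, SE 0.0771, adjusted p = 0.00021). Only 5.01% of tested genes had a lower value in BR100 against wild type, and 3.87% in BR200. The other 2 NFE2L1 probe sets gave the same direction, tested among 19055 probe sets. Probe set 200759_x_at changed by −1.90 in both BR100 and BR200, and 214179_s_at by −2.00 in BR100 and −1.99 in BR200. All 3 carry a suffix for probes that match several transcripts or cross-hybridize, so NFE2L1 had no value once such probe sets were set aside.

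NFE2L2, the antioxidant response factor, was lower by a smaller step. Probe set 201146_at read 12.02 and 12.17 in BR100 and 12.13 and 12.34 in BR200, against 12.68 and 12.85 in wild type. The resistant arrays all lay below the wild type arrays, and BR100 and BR200 overlapped. The level was 1.59-fold lower in BR100 (log2 change −0.67, SE 0.0647, adjusted p = 0.00125) and 1.44-fold lower in BR200 (log2 change −0.53, SE 0.0647, adjusted p = 0.00271). A dimmer probe set, 1567013_at, gave 6.28 and 6.23 in BR100, 6.01 and 6.13 in BR200, and 6.54 and 6.65 in wild type. It changed by −0.34 in BR100 (adjusted p = 0.0269) and −0.53 in BR200 (adjusted p = 0.00855), and here BR200 rather than BR100 was the lowest variant. A further probe set, annotated to NFE2L2 and CSNK2A1 together, held 8.49 and 8.75 in BR100, 8.37 and 8.58 in BR200 and 8.59 and 8.62 in wild type. It was not tested. Its BR100 values lay on both sides of the wild type values, so it showed no fall in BR100. Both BR200 values were below wild type, the higher one only just, at 8.58 against 8.59. The last NFE2L2 probe set, 1567015_at, was at a log2 level of 2.38 or lower on all arrays, near the lowest value on the arrays. With the 3 probe sets that name NFE2L2 alone averaged, the change was −0.31 in BR100 and −0.35 in BR200, both still called.

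Among the small MAF genes, MAFF moved far more than MAFG. MAFF, the member of the family known for induction by stress and inflammatory signals, read 10.07 and 10.61 in BR100 and 10.37 and 10.72 in BR200, against 12.20 and 12.77 in wild type (probe set 36711_at). No resistant array reached the lower wild type array, although the kits differed by 0.35 to 0.57 within a variant. The level was 4.42-fold lower in BR100 (log2 change −2.14, SE 0.0849, adjusted p = 0.000168) and 3.83-fold lower in BR200 (log2 change −1.94, SE 0.0849, adjusted p = 0.000225). In BR100 against wild type 3.68% of tested genes had a lower value, and in BR200 3.52%. The second MAFF probe set, 205193_at, gave 6.68 on both BR100 arrays, 6.69 and 7.01 in BR200, and 8.62 and 8.36 in wild type. Its changes were −1.80 in BR100 (SE 0.162, adjusted p = 0.00165) and −1.64 in BR200 (SE 0.162, adjusted p = 0.00235).

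MAFG, a widely expressed small MAF, did not separate cleanly. Probe set 204970_s_at had 9.24 and 8.76 in BR100 and 9.12 and 8.56 in BR200, against 9.91 and 8.92 in wild type. The One-Cycle array of wild type lay below the Express arrays of both resistant variants, so the groups overlapped. The Express array was above the One-Cycle array by 0.48 in BR100, 0.56 in BR200 and 0.99 in wild type. Within the Express kit the difference from wild type was −0.67 in BR100 and −0.79 in BR200, and within the One-Cycle kit it was −0.16 and −0.37 in the same order. The fitted change was −0.41 in BR100 (SE 0.146, adjusted p = 0.0612), not past the threshold, and −0.58 in BR200 (SE 0.146, adjusted p = 0.0241). The BR200 call was lost without either BR200 array (adjusted p = 0.142 and 0.0795), and without the One-Cycle array of wild type the BR100 change was −0.65 and past the threshold (adjusted p = 0.0155). The dimmer probe set 224466_s_at read 5.87 and 5.57 in BR100, 5.55 and 5.52 in BR200, and 6.29 and 6.02 in wild type. Its groups did not overlap with wild type, and it changed by −0.43 in BR100 (SE 0.102, adjusted p = 0.0233) and −0.62 in BR200 (SE 0.102, adjusted p = 0.00901).

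BACH1, the repressor that competes for small MAF partners, was lower in both resistant variants. Probe set 204194_at had 7.92 and 8.21 in BR100 and 8.32 and 8.66 in BR200, against 9.75 and 9.86 in wild type. The 3 variants kept the same order in each kit, with BR100 lowest and wild type highest, and no 2 variants overlapped. The level was 3.34-fold lower in BR100 (log2 change −1.74, SE 0.0858, adjusted p = 0.000249) and 2.48-fold lower in BR200 (log2 change −1.31, SE 0.0858, adjusted p = 0.000505). The other 5 BACH1 probe sets were at a log2 level of 2.50 or lower on every array, and 3 of them also named other genes. Averaging 204194_at with the 2 dim probe sets that name BACH1 alone shrank the change to −0.60 in BR100 and −0.46 in BR200, both still called.

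KEAP1, the adaptor that delivers NFE2L2 for degradation, was higher. Its single probe set, 202417_at, had 9.24 and 8.79 in BR100 and 9.12 and 8.82 in BR200, against 8.58 and 8.21 in wild type. All 4 resistant arrays were above both wild type arrays, and the Express array was above the One-Cycle array in each variant, by 0.30 to 0.45. The level was 1.53-fold higher in BR100 (log2 change 0.62, SE 0.073, adjusted p = 0.00226) and 1.49-fold higher in BR200 (log2 change 0.57, SE 0.073, adjusted p = 0.00301). Without the kit as a block neither change passed (adjusted p = 0.0913 and 0.112), since the kit difference then enters the error.

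NGLY1, the glycanase that deglycosylates NFE2L1 on its way out of the endoplasmic reticulum, was also higher, while NFE2L1 itself was lower. Probe set 220742_s_at read 9.32 and 9.14 in BR100 and 9.01 and 8.82 in BR200, against 8.69 and 8.56 in wild type. No 2 variants overlapped, with BR100 highest and wild type lowest. The level was 1.51-fold higher in BR100 (log2 change 0.60, SE 0.0655, adjusted p = 0.00178) and 1.22-fold higher in BR200 (log2 change 0.29, SE 0.0655, adjusted p = 0.0176). The BR200 call was lost without the Express array of BR200 (adjusted p = 0.112), its One-Cycle array (adjusted p = 0.0883) or the Express array of wild type (adjusted p = 0.0659), while the change stayed between 0.26 and 0.31. The other NGLY1 probe set, 207492_at, was at a log2 level of 2.84 or lower on all arrays. Averaged with it, NGLY1 was at 0.16 in BR100 (adjusted p = 0.19) and 0.00 in BR200 (adjusted p = 0.992).

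**Figure D2:**
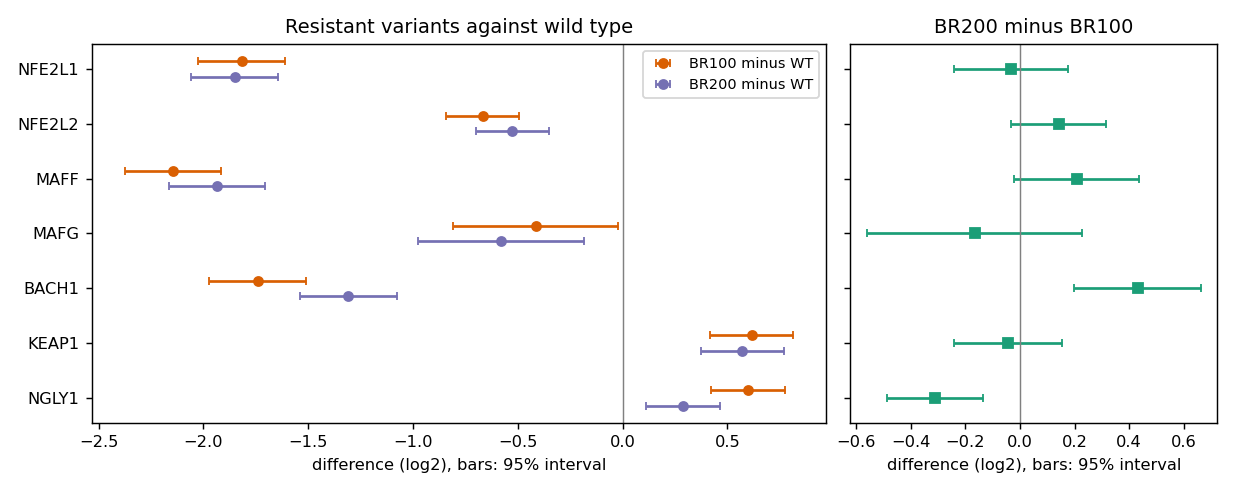
Fitted log2 differences of the 7 member genes with 95% intervals, each resistant variant minus wild type (left) and BR200 minus BR100 (right). NFE2L1, MAFF and BACH1 lie at −1.31 or lower on the left, KEAP1 and NGLY1 above 0, and on the right only the unadjusted intervals of BACH1 and NGLY1 leave out 0.

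Each probe set that passed the filter and named 1 gene was also tested alone, and the tested probe sets of a gene pointed the same way. Of 12 tested probe sets, 11 were called in BR100 (2 higher, 9 lower) and 12 in BR200 (2 higher, 10 lower), beside 62.8% and 59.6% of the 19055 probe sets tested. The groups did not overlap with wild type for 11 of the 12 probe sets in either comparison, and 204970_s_at of MAFG was the exception. How many of all probe sets separated in this way was not counted, so this count is not a result about the members. Sizes of change were closer between the probe sets of some genes than of others. The 3 NFE2L1 values spanned −2.00 to −1.82 in BR100, the 2 MAFF values were −2.14 and −1.80, and the 2 MAFG values were −0.41 and −0.43. The 2 NFE2L2 values in BR100 differed more, at −0.67 (SE 0.0724) and −0.34 (SE 0.0854).

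**Figure D3:**
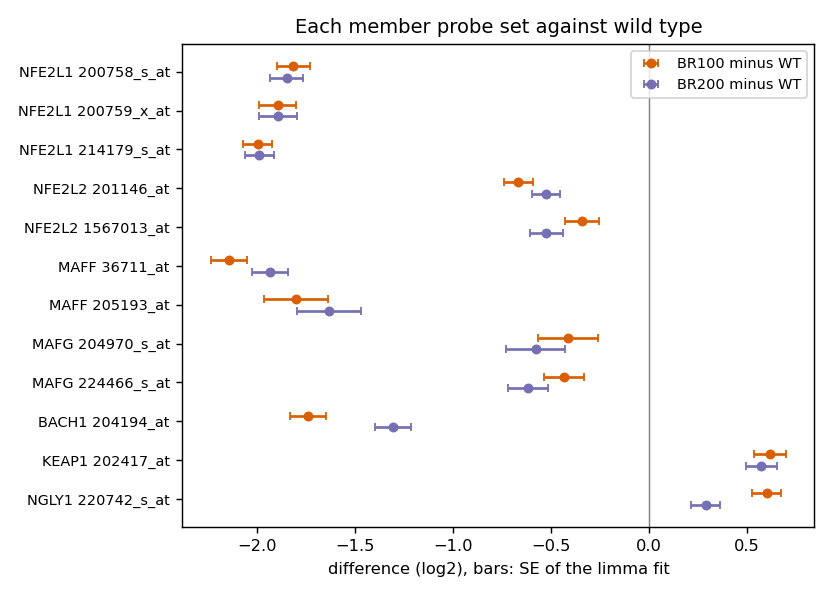
Log2 difference from wild type of each tested member probe set, with SEs of the limma fit over 19055 probe sets, BR100 above BR200 in each row. Probe sets of the same gene lie on the same side of 0, and those of NFE2L2, MAFG, KEAP1 and NGLY1 stay within 0.67 of it.

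The next comparison asked whether the 2 resistant variants differ from each other. None of the 7 member genes was called between BR200 and BR100, beside 10.6% of all genes tested (6.39% higher, 4.23% lower); 2 of the 7 had an unadjusted p under 0.05, as had 3259 of the 10370 genes. None of the 12 probe sets was called either, beside 5.7% of all probe sets, and 2 had an unadjusted p under 0.05. BACH1 came closest, with 8.32 and 8.66 in BR200 against 7.92 and 8.21 in BR100 (log2 difference 0.43, SE 0.0858, adjusted p = 0.0524). NGLY1 read 9.01 and 8.82 in BR200 against 9.32 and 9.14 in BR100 (log2 difference −0.31, SE 0.0655, adjusted p = 0.0569). Both genes kept their direction in each kit, at 0.41 and 0.45 for BACH1 and −0.31 and −0.32 for NGLY1. A trended, robust prior in limma put both past the threshold (adjusted p = 0.0149 for BACH1 and 0.0321 for NGLY1), with 21.7% of all genes called. They also passed when only genes reaching a log2 level of 6 were kept (adjusted p = 0.0308 and 0.0421), with 17.2% called. Neither passed with probe sets averaged, at 0.14 for BACH1 (adjusted p = 0.231) and −0.16 for NGLY1 (adjusted p = 0.33). Without the kit as a block, adjusted p was 0.43 and 0.455. Of 17 alternatives for BACH1, 4 gave a call, as did 2 of 16 for NGLY1, within-kit values with no test included.

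For the other members the unadjusted 95% interval of the BR200 minus BR100 difference covers array-to-array spread alone, which may be technical. It ran from −0.24 to 0.18 for NFE2L1, from −0.03 to 0.32 for NFE2L2, from −0.02 to 0.44 for MAFF, from −0.56 to 0.23 for MAFG and from −0.24 to 0.15 for KEAP1. A difference of 2-fold, which is 1 on this scale, lay outside every one of these intervals. The genes with a pattern most like NFE2L1 over the 6 arrays, by root mean square distance in log2 units after each gene's own mean was subtracted, were NTSR1 (0.0564), FAM8A1 (0.0577) and RMND5A (0.0635), out of 10369 others. Against wild type they were at −1.84, −1.74 and −1.90 in BR100 and at −1.90, −1.80 and −1.89 in BR200, in that order of genes.

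The other genes of the pathway were read from lists chosen for what the genes do, with earlier results of these data known. Among further cap'n'collar, BACH and large MAF factors, NFE2L3 was the only 1 of 7 that could be tested, as 2 lacked an own probe set and 4 were below the filter. NFE2L3, a relative of NFE2L1, had a log2 mean of 10.43 in BR100 and 10.66 in BR200, against 9.98 in wild type. It rose by 0.45 in BR100 (SE 0.0788, adjusted p = 0.00754) and by 0.68 in BR200 (SE 0.0788, adjusted p = 0.00232), the opposite direction to NFE2L1 and NFE2L2. The BR100 call was lost without the One-Cycle array of BR100 (adjusted p = 0.0608).

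Of 15 genes tested, out of 19 listed, for the processing and turnover of NFE2L1, 2 rose and 6 fell in BR100 (median −0.09) and 2 rose and 7 fell in BR200 (median −0.18). This stands beside 68.5% of all genes called in BR100 and 66.5% in BR200. VCP, the ATPase that pulls NFE2L1 out of the membrane, rose by 1.51 in BR100 and by 1.32 in BR200, and its cofactor UFD1 rose by 1.16 and 1.20. SEL1L, a scaffold of the ubiquitin ligase for proteins of the endoplasmic reticulum, fell (−1.74 in BR100 and −1.84 in BR200). OGT, which glycosylates NFE2L1 among many proteins, fell (−1.42 in BR100 and −1.23 in BR200). Without the One-Cycle array of BR100, fewer genes of the list were lower in BR100, and fewer of all genes were called too. DDI2, the protease that cuts NFE2L1, had no probe set of its own here.

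Of 20 genes tested that control NFE2L2, 7 rose and 8 fell in BR100 (median 0.01), and 9 rose and 9 fell in BR200 (median −0.08). Among all genes 36.7% rose and 31.8% fell in BR100, and 35.4% rose and 31.2% fell in BR200, so these counts are not a result about the list. RBX1, the RING subunit of the KEAP1 and CUL3 ligase, rose by 1.24 in BR100 and by 1.26 in BR200, as KEAP1 did by less, while CUL3 was at 0.03 (adjusted p = 0.772) and −0.16 (adjusted p = 0.195). PGAM5, a mitochondrial phosphatase that binds KEAP1, rose by 1.44 in BR100 and by 0.83 in BR200 (adjusted p = 0.0263). With its probe sets averaged PGAM5 was at 0.72 in BR100 and 0.41 in BR200, both called. Its BR200 value was 0.48 without the One-Cycle array of BR200 and 0.55 without that of wild type. With no filter on low values PGAM5 was called in neither variant (adjusted p = 0.0829 in BR100 and 0.209 in BR200). Without the kit as a block its BR200 call was lost (adjusted p = 0.119). Its BR200 call was also lost without either BR100 array (adjusted p = 0.0578 in both fits). CDKN1A, the p21 protein that can shield NFE2L2 from KEAP1, fell (−2.05 in BR100 and −1.73 in BR200), as did EIF2AK3, the PERK kinase (−1.33 and −1.44, or −0.67 and −0.72 with its probe sets averaged). Leaving out either BR100 array gave fewer genes of the list lower in BR100. Leaving out the One-Cycle array of BR200 gave fewer higher in BR200. Fewer of all genes were called in these fits as well. CUL3 was named after its values were seen.

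**Figure D4:**
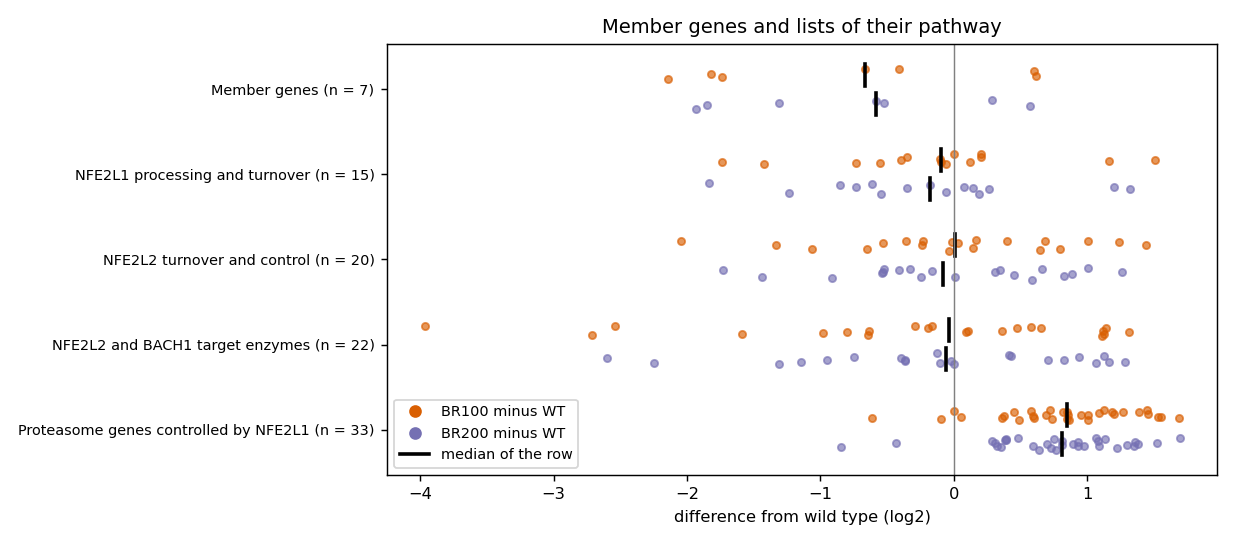
Log2 differences from wild type of the 7 member genes and of 4 lists of their pathway, BR100 above BR200 in each row, 1 point per tested gene and a black bar at the row's median. The proteasome row has medians of 0.85 and 0.81 and the other 3 lists have medians between −0.18 and 0.01, while the member genes have −0.67 and −0.58; vertical scatter within a row has no meaning.

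Target genes of both factors were counted the same way. Of 33 tested proteasome genes that NFE2L1 controls, 29 rose and 1 fell in BR100 (median 0.85), and 31 rose and 2 fell in BR200 (median 0.81), while NFE2L1 RNA was lower in both. Of all genes, 36.7% rose in BR100 and 35.4% in BR200. PSMB5, the subunit whose active site bortezomib blocks, was higher by 1.69 in each variant (SE 0.0664, adjusted p = 0.000166 in BR100 and 0.000193 in BR200). PSMA3, a ring subunit, rose by 1.55 in BR100 and by 1.52 in BR200, and PSMG1, an assembly chaperone, rose by 1.53 and 1.36. PSMB2, another subunit of the inner rings, rose by 1.46 and 1.38, but was at 0.34 (adjusted p = 0.103) and 0.15 (adjusted p = 0.425) once cross-hybridizing or shared probe sets were left out. PSMA3 was at 0.66 and 0.54 with its probe sets averaged. Without cross-hybridizing or shared probe sets, 19 of 25 proteasome genes were higher in BR100 and 20 of 25 in BR200. Of all 7701 genes then tested, 67.7% were called in either direction in BR100 and 65.3% in BR200. Of 22 tested target enzymes of NFE2L2 and BACH1, 9 rose and 8 fell in BR100 (median −0.04), and 9 rose and 9 fell in BR200 (median −0.06), close to the shares called among all genes. SLC7A11, the cystine transporter, fell (−2.71 in BR100 and −2.25 in BR200). AKR1B10, an aldo-keto reductase, was near background in the resistant variants, with a log2 mean of 2.63 in BR100 and 3.99 in BR200, against 6.60 in wild type. With values under a log2 level of 4 raised to it, its changes were −2.60 in BR100 and −2.50 in BR200, both called, and they are bounds rather than sizes. ABCC3, an efflux pump, fell (−1.59 in BR100 and −1.15 in BR200), but was at −0.09 and −0.01 without cross-hybridizing or shared probe sets. AKR1C1, a reductase of steroids and aldehydes, fell in BR100 (−2.54, adjusted p = 0.000445, or −0.97 with its probe sets averaged) and was at −0.12 in BR200 (adjusted p = 0.544). AKR1C1 and AKR1B10 had no tested value without cross-hybridizing or shared probe sets. Without the Express array of BR200, fewer of these enzymes were lower in BR200, as fewer of all genes were called.

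Between the resistant variants, 5 of the 22 target enzymes were higher in BR200 than in BR100 and none was lower, beside 6.39% higher and 4.23% lower among all genes. They were AKR1C1, with a log2 difference of 2.42 (SE 0.165, adjusted p = 0.00788), AKR1B10 (1.36, adjusted p = 0.00882), HMOX1, the heme oxygenase that BACH1 is known to repress (0.72, adjusted p = 0.0267), SLC7A11 (0.47, adjusted p = 0.036) and ABCC3 (0.44, adjusted p = 0.0422). HMOX1 was named after its values were seen. Without the kit as a block, HMOX1, SLC7A11 and ABCC3 were not called (adjusted p = 0.826, 0.263 and 0.193). AKR1B10 was at 0.091 (adjusted p = 0.49) with values under a log2 level of 4 raised to it. ABCC3 was at 0.084 (adjusted p = 0.504) without cross-hybridizing or shared probe sets, and AKR1C1 at 0.88 (adjusted p = 0.0107) with its probe sets averaged. The 5 kept their direction but lost their call when any 1 of the 6 arrays was left out, with adjusted p between 0.0508 and 0.225. Those fits called 0 to 0.588% of all genes in this comparison, so few calls of any gene could be kept. BACH1 itself was at 0.43 in the same comparison, not past the threshold. Of the proteasome genes, 0 of 33 were called between BR200 and BR100 by this fit; with the trended, robust prior 2 were higher and 2 lower.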

How the data were processed

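Expression was measured on 6 Affymetrix arrays of HT-29 variants, 2 for each of BR100, BR200 and wild type. The deposited values are log2 expression per probe set, made by the authors with GCRMA per the submitters' processing notes; its version and options are not given in the sources used here. No detection calls were used, all arrays share a lowest value of 2.23, and the number of arrays limits the precision. Probe sets were named from the platform annotation, which names 1 gene for 41097 of them, several for 1801 and none for 11777. A gene took the brightest (by mean) of the probe sets naming it alone, kept where at least 2 arrays reached a log2 level of 4.

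Differences came from 1 linear model with variant and kit terms, fitted by lmFit and eBayes of limma 3.58.1 under R 4.3.3, two-sided, on all genes or all probe sets kept, with Benjamini-Hochberg adjustment over all of them and a threshold of 0.05; it had 2 residual degrees of freedom. Its code was tested on simulated data. The kits pair the arrays by label, and same-kit deviations from the variant means correlated at r = 0.762 to 0.845 across 10370 genes. Errors of changes are limma's SE. The members, lists and motifs were chosen with earlier results of these data known. The rule for named genes took all 8 members, up to 4 called genes per list by largest change, and the 3 nearest patterns to NFE2L1; other names are marked. Alternatives changed the kit block, probe set choice, filter, floor, normalization, prior or arrays included. Applying them to the pathway lists was decided after seeing the data. MAFK was not analysed here.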

Additional observations from a re-analysis of the deposited data

Results flagged for a closer look

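Each gene here differed between the resistant variants in a direct test, BR200 against BR100 (limma, adjusted p), and belongs to a list of the pathway rather than to the members. Values are log2 means of 2 arrays. AKR1C1 was at 8.16 in BR200 and 5.75 in BR100 (difference 2.42, adjusted p = 0.00788), and the difference was 0.88 (adjusted p = 0.0107) with its probe sets averaged. AKR1B10 was at 3.99 in BR200 and 2.63 in BR100, both near background (difference 1.36, adjusted p = 0.00882). With values under a log2 level of 4 raised to it, that difference was 0.091 and not called (adjusted p = 0.49). AKR1C1 and AKR1B10 were both read from cross-hybridizing or shared probe sets, and neither had a tested value without them. HMOX1 was at 5.27 in BR200 and 4.55 in BR100 (difference 0.72, SE 0.0947, adjusted p = 0.0267), with SDs of 0.94 and 0.90 over the 2 arrays, above the difference. These SDs include the difference between kits. SQSTM1, a receptor that can sequester KEAP1, was at 11.86 in BR200 and 11.20 in BR100 (difference 0.66, adjusted p = 0.0213). SLC7A11 was at 10.95 in BR200 and 10.49 in BR100 (difference 0.47, adjusted p = 0.036). ABCC3 was at 12.11 in BR200 and 11.67 in BR100 (difference 0.44, adjusted p = 0.0422), but the difference was 0.084 (adjusted p = 0.504) without cross-hybridizing or shared probe sets and 0.19 (adjusted p = 0.209) with its probe sets averaged. STT3A, a subunit of the glycosylating enzyme of the endoplasmic reticulum, was at 10.56 in BR200 and 11.01 in BR100 (difference −0.45, adjusted p = 0.035). Its SDs over the 2 arrays were 0.99 and 0.98, above the size of the difference. They include the difference between kits, which the fit takes out, and the SE of the fit was 0.0695. Without the kit as a block, adjusted p was 0.826 for HMOX1, 0.946 for STT3A and 0.0797 for SQSTM1. It was 0.263 for SLC7A11 and 0.193 for ABCC3, so these genes were then not called. None of the 7 kept its call when 1 array was left out, in any of 6 such fits, while each kept its direction. Those fits called 0% of all genes when an array of BR100 or BR200 was left out and 0.588% when one of wild type was, so the lost calls say little about these genes in particular.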

How the results depend on the processing

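The members' 14 differences from wild type kept their sign under all 232 alternative values. Of these, 28 were within-kit values with no test, and 187 of the 204 tested stayed on the same side of the threshold; 12 lost a call and 5 gained one, all for MAFG, NGLY1 or KEAP1. Without the kit as a replicate block, 4 rather than 7 member genes were called in BR200 against wild type, and fewer member probe sets. The calls over all genes went to 42.3% in BR100 and 39.5% in BR200. In BR200 against wild type without cross-hybridizing or shared probe sets, all 4 member genes tested were called, beside 65.3% of all genes. NFE2L1, MAFG and NGLY1 then had no probe set that passed. Between BR200 and BR100, where 0 members were called, the stricter filter gave 2 member genes and the trended, robust prior also 2. Both settings called member probe sets too. Quantile normalization or median centring gave 1 gene each. There the calls over all genes were 0.0759% with no filter, 17.2% with the stricter filter and 21.7% with that prior. They were 12.6% with quantile normalization and 13.3% with median centring, and the cause was not tested. Leaving out 1 array leaves a variant with 1 array, so the counts of member calls from those fits are not given. SQSTM1 in BR200 against wild type was at −0.41, and at 0.069 with its probe sets averaged. With 2 arrays per variant and no detection calls, signal near the background limits what dim probe sets can show.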
